A study of Mus musculus with 4 samples.

Results

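The Hox genes encode homeodomain transcription factors that are arranged in 4 clusters, Hoxa, Hoxb, Hoxc and Hoxd, in the order in which they act along the body axis. Genes of the same paralogue number in different clusters descend from a common ancestral gene. Low numbers act towards the head, and the highest numbers act towards the tail and, in Hoxa and Hoxd, pattern the limb from its base to its tip. Polycomb proteins keep unused Hox genes closed and Trithorax proteins keep used ones open, so that cells taken from a limb retain a positional Hox code in culture. Here the accessibility of 38 listed Hox genes was described from ATAC-seq peaks, in which the transposase Tn5 cuts and tags open chromatin. Every peak in or within 5 kb of a listed gene was taken as a member. This gave 318 of the 455071 peaks in all libraries, and peaks that overlapped by at least 1 bp were merged into 123 of 172311 sites. Positions are those of the mouse assembly mm10.

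The chondrocytes, the cells of cartilage, came from knee cartilage of C57BL/6 mice at 0 to 4 days after birth. Cells at passage 0 (P0) had been in culture for less than 24 h, and cells at passage 8 (P8) had been passaged serially, each time seeded at 24000 and collected at 48000 cells per cm2. There were 2 libraries for each passage and no other treatment or genotype, and nothing states whether they came from separate animals or cultures, so p-values measure the spread between these libraries, which may be technical. The libraries are called A and B within a passage because the peak names carry no replicate number. For the genes that define cartilage, a peak in or within 5 kb was present in all 4 libraries at 8 of 8 chondrocyte markers. Such peaks were also present in all 4 libraries at 3 of 4 blood, 4 of 4 endothelial, 2 of 3 muscle and 2 of 4 epithelial markers. Cd3e lacked a peak in every library, and Epcam held peaks in both P0 and neither P8 library (highest fold enrichments of 5.90 and 8.24). Of all protein-coding genes, 74.5% had such a peak in all 4 libraries and 2.63% in both P0 and no P8 library. With shares this high, the marker counts do little to tell cell types apart. The blood markers held 17, 12, 9 and 14 peaks in P0 libraries A and B and P8 libraries A and B, the endothelial markers 19, 13, 7 and 13, the muscle markers 5, 3, 2 and 5 and the epithelial markers 17, 10, 5 and 6, while the chondrocyte markers held 89, 85, 46 and 65. The part of other cell types in the Hox values was not tested, and in bulk samples fewer open cells and less access per cell cannot be told apart.

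The libraries differed in depth and in peak number. The lowest background that the peak caller used, a measure of depth, was 194 tags per 10 kb for library A of P0, 162 for library B of P0, 140 for library A of P8 and 134 for library B of P8. Strings of 4 values are given in this order throughout. The libraries held 145703, 119974, 89610 and 99784 peaks. All peaks of the genome were thus 1.40 times as many at P0, and both P0 libraries exceeded both P8 libraries in depth. Each Hox count is therefore given beside the same count over the genome.

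The start regions of 4 Hox genes are printed to show the kinds of sequence at which the results differ. Hoxd10 held a peak in all 4 libraries, Hoxa5 in both P0 libraries and in neither P8 library, and Hoxb8 and Hoxb4 in no library. The windows run from 250 bases before to 50 bases after the start and are taken from RefSeq on GRCm38.p6. They lie at chr2:74691641-74691940 on the plus strand for Hoxd10, chr6:52204538-52204837 on the minus strand for Hoxa5, chr11:96281655-96281954 on the plus strand for Hoxb8 and chr11:96318017-96318316 on the plus strand for Hoxb4. Capitals mark matches on either strand to the Meis motif TGACAG, the Pbx-Hox motif TGATNNAT, the AP-1 motif TGANTCA, the Hox core TAATNA or the TATA box TATAAA, and runs of capitals can join matches that touch or overlap.
Hoxd10: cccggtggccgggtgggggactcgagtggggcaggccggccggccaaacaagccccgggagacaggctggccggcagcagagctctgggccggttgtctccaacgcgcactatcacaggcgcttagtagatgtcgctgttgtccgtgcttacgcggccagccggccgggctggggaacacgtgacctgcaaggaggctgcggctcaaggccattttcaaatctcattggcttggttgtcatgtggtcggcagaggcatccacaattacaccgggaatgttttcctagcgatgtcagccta
Hoxa5: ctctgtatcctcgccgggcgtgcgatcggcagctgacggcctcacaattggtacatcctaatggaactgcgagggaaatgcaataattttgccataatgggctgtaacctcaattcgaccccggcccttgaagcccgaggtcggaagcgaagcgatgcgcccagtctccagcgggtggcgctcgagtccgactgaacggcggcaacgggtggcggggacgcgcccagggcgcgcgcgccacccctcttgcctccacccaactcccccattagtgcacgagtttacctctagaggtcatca
Hoxb8: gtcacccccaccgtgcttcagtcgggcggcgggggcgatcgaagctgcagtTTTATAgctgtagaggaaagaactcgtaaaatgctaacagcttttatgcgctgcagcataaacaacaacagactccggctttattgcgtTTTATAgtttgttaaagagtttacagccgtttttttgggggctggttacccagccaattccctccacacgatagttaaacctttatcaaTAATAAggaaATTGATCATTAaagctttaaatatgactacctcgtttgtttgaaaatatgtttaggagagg
Hoxb4: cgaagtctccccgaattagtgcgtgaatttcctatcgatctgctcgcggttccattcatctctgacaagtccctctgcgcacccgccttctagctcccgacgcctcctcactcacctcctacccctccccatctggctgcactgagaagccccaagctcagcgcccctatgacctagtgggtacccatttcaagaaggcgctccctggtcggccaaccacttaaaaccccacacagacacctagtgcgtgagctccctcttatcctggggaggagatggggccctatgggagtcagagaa
In the table, 22 of the 38 genes had at least 1 window, 24 windows in all. The median Hox window held 14.5 CpG dinucleotides, from 4 to 45, whereas the median of all 32851 windows held 7. Of the printed windows, Hoxd10 held 22, Hoxa5 29, Hoxb8 13 and Hoxb4 14. Over all windows the count did not order the peaks, since the Hoxa6 window, with 26, held no peak in any library. The Hox core was present in 6 of 24 Hox windows (25.0%) and in 26.5% of all windows, and the TATA box in 4 (16.7%) and 13.6%. The Meis motif occurred in 2 windows (8.33%) beside 19.2% of all windows, the Pbx-Hox motif in 4 (16.7%) beside 8.85%, and the AP-1 motif in 1 (4.17%) beside 7.81%. Only the Hoxb8 window among the printed sequences held matches, to the Pbx-Hox motif, the Hox core and the TATA box, where the Pbx-Hox match overlaps a Hox core match. These matches are descriptions of letters and not of bound sites.

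Hox peaks were fewer at P8 than at P0, and Hoxb had the fewest peaks of the 4 clusters at both passages. There were 109 and 94 Hox peaks at P0 and 52 and 63 at P8. The mean was 101.5 ± 10.6 (SD, n = 2) at P0 and 57.5 ± 7.78 at P8, a ratio of 1.77 with a propagated SD of 0.302. Both P0 libraries exceeded both P8 libraries, and the exact two-sided permutation test gave p = 0.333, the smallest that 2 against 2 can give. As a share of all peaks, Hox peaks made up 0.0748 and 0.0784% at P0 and 0.0580 and 0.0631% at P8 (ratio 1.26 ± 0.0859, exact p = 0.333). Hox peaks covered 26772, 21238, 9557 and 11704 bp, so the length differed more than the count (ratio 2.26 ± 0.489), and over the genome the covered length had a ratio of 1.66 ± 0.317. The median Hox peak was 180 and 203 bp long in the P0 libraries, and 152 and 168 bp long in the P8 libraries. When the same number of top peaks was taken from every library, the count of Hox peaks was 61, 66, 52 and 52, a ratio of 1.22 with no overlap between the passages.

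**Figure D1:**
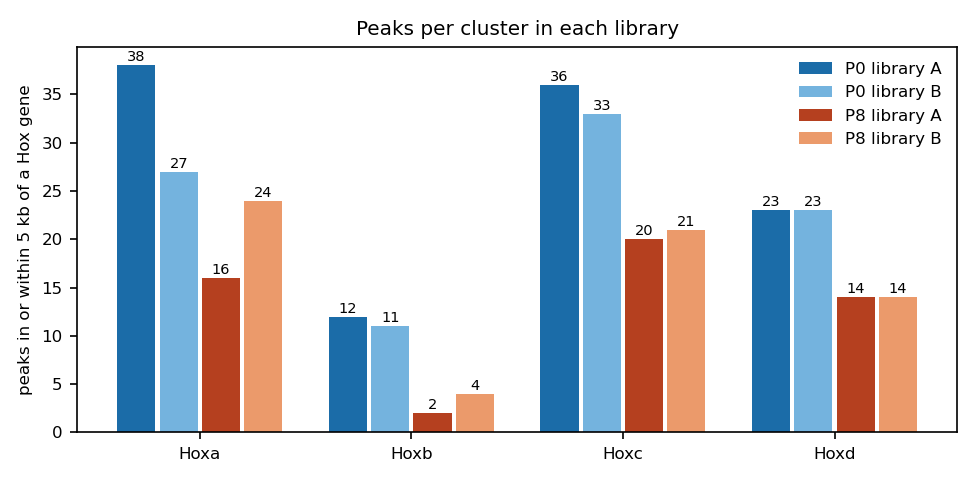
Number of peaks in or within 5 kb of a listed Hox gene (vertical axis, from 0) in each cluster (horizontal axis) and library (bars, P0 libraries in blue and P8 libraries in red). Hoxb held 12 and 11 peaks at P0 and 2 and 4 at P8, while Hoxa, Hoxc and Hoxd kept at least 14 peaks in every library.

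Hoxb stood apart from the other clusters in its few and narrow peaks. It held 12 and 11 peaks at P0 and 2 and 4 at P8, a ratio of 3.83 with a propagated SD of 1.82. This large error follows from counts of so few peaks, and the ratio was 2.00 with the same number of top peaks in every library (5, 7, 2 and 4 peaks) and 14.0 among peaks with a −log10 q of at least 5 (7, 7, 0 and 1 peaks). Densities were taken over the whole listed span of a cluster, with every peak in it, also those more than 5 kb from a listed gene. Across its listed span of 174 kb, Hoxb had 0.862 and 0.747 peaks per 10 kb at P0 and 0.172 and 0.345 at P8. This span includes the stretch without listed genes between the end of Hoxb13 (chr11:96196610) and the start of Hoxb9 (chr11:96271330). Hoxc had 3.02 and 2.77 per 10 kb at P0 and 1.64 and 1.73 at P8, and Hoxd had 2.17 and 2.27 at P0 and 1.44 and 1.34 at P8. In Hoxa the density was 3.76, 2.74, 1.42 and 2.23 per 10 kb, so that its P8 libraries differed from each other by more than those of Hoxc or Hoxd. The lowest density in Hoxa, Hoxc or Hoxd at P8 was thus above the highest in Hoxb at P0. As shares of all peaks of a library, Hoxa overlapped between the passages (0.0261 and 0.0225% at P0, 0.0179 and 0.0241% at P8). Hoxb (0.00824 and 0.00917% against 0.00223 and 0.00401%) and Hoxc (0.0247 and 0.0275% against 0.0223 and 0.0210%) did not. Hoxd did not either, but only by a narrow margin (0.0158 and 0.0192% against 0.0156 and 0.0140%). The ratio of counts was 1.62 ± 0.602 for Hoxa, 1.68 ± 0.119 for Hoxc and 1.64 for Hoxd, whose libraries were tied at 23 for P0 and at 14 for P8. All 4 cluster comparisons of counts gave p = 0.333 in the exact permutation test. With the same number of top peaks, Hoxa had 20, 23, 16 and 20 peaks, Hoxc 20, 22, 20 and 18 and Hoxd 16, 14, 14 and 10, so that the passages met or overlapped in each (exact p = 0.667) and the Hoxc ratio was 1.11. With either count, the differences between clusters in this ratio were not tested.

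Most Hox sites were found at P0, and no site was found in both P8 libraries without a P0 peak. Of the 123 sites, 34 (27.6%) held a peak in all 4 libraries, where 32.4% of all sites in the genome did so. A further 20 (16.3%) held a peak in both P0 and no P8 library, close to the 17.0% of all sites, and 0 held a peak in both P8 and no P0 library, where 1.84% of all sites did. The share of P0-only sites was therefore not above that of the genome. Sites with a peak in both P0 libraries and 1 P8 library made up 19 (15.4%) of the Hox sites and 8.78% of all sites, and 39 (31.7%) were found in a single P0 library beside 23.2%. By cluster, 11 of 39 Hoxa, 16 of 44 Hoxc and 7 of 25 Hoxd sites were shared by all 4 libraries, but 0 of 15 Hoxb sites were. The 5 Hox sites seen at P8 alone each came from a single library and had fold enrichments between 2.94 and 6.23. The highest of these, at chr15:102942843-102942923, lay next to a site beside Hoxc12 that all 4 libraries shared. Of all Hox sites, 82 lay inside a listed gene and 41 outside within 5 kb.

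**Figure D2:**
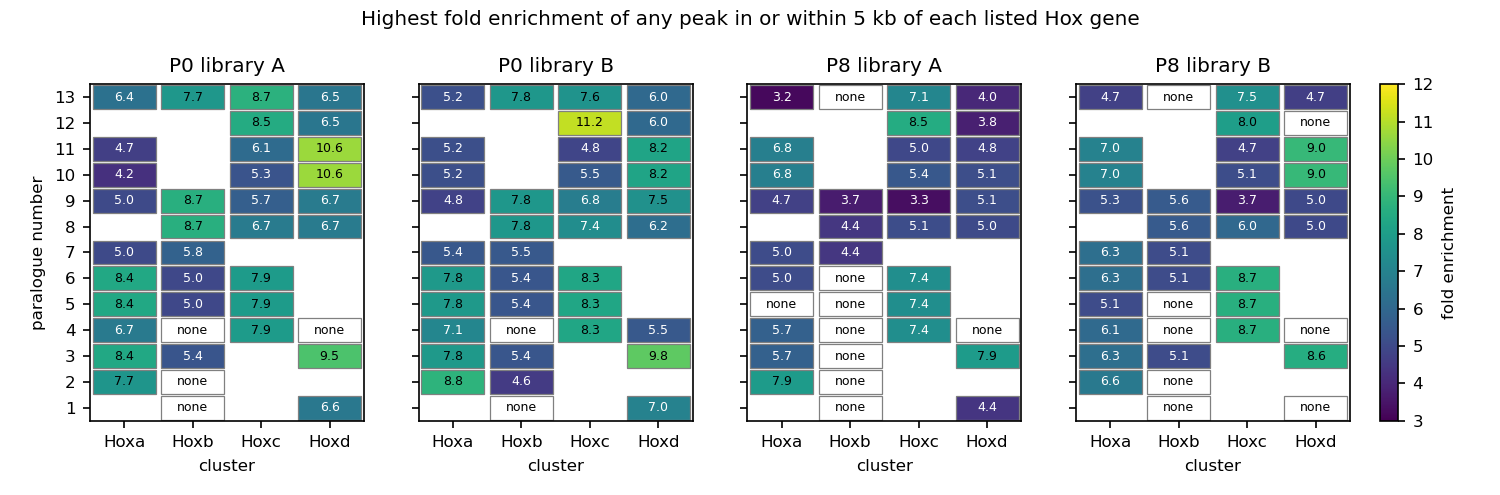
Highest fold enrichment of any peak in or within 5 kb of each listed Hox gene (cell colour and number), by cluster (horizontal axis) and paralogue number (vertical axis), with a panel for each library. Cells marked none are listed genes without a peak, and empty positions hold no listed gene. Hoxb1 and Hoxb4 had no peak in any library, and Hoxb2 to Hoxb6 had none in P8 library A.

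Counted by gene, 34 and 36 of the 38 genes had a peak in or within 5 kb at P0, and 29 and 30 at P8. Such a peak was present in all 4 libraries at 27 genes (71.1%), beside 74.5% of 21887 protein-coding genes. Hoxb5 and Hoxb13 were the 2 genes (5.26%) with a peak in both P0 and no P8 library, a pattern held by 2.63% of protein-coding genes. Neighbouring Hox genes share peaks under this rule, so the genes are not independent. Among the anterior genes, Hoxb1, which acts in the hindbrain, and Hoxb4 had no peak in any library. Hoxb2 had a single peak, in P0 library B, with a fold enrichment of 4.58, and Hoxd4 likewise had 1 peak of 5.49 in that library. The posterior gene Hoxb13, which acts at the tail end of the body, held its site at chr11:96194095-96194445, across the edge of the gene, with fold enrichments of 7.75 and 7.76 at P0 and no peak at P8. In contrast, every listed gene of Hoxc had a peak in all 4 libraries.

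By paralogue number, groups 9 and 10 had the most peaks among the posterior genes. Around the 4 genes of group 9 there were 22, 19, 10 and 9 peaks, around the 3 genes of group 10 there were 26, 21, 10 and 15, and around the 3 genes of group 11 there were 14, 14, 9 and 9. The 4 genes of group 13, which pattern the tip of the limb, had 14, 15, 6 and 8. Each of these groups had more peaks in either P0 library than in either P8 library. The peaks of the whole genome had the same order (145703, 119974, 89610 and 99784), and neighbouring groups share peaks. Group 3, with long gene spans, had 26, 21, 10 and 15 peaks, and the 2 genes of group 1 had 3, 2, 1 and 0, all of them at Hoxd1. The groups differ in the number and length of their genes, so the counts are not levels of accessibility.

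Fewer Hox genes than protein-coding genes, as a share, had a peak at the start in all 4 libraries, whereas at P0 the order depended on how a start was defined. A start was taken as the RefSeq window or, for the 16 genes without a window, as the 1 kb on either side of a gene end. By this rule 23 and 22 of 38 Hox genes had a peak at the start at P0 and 13 and 15 at P8, and among protein-coding genes the shares were 64.5, 63.1, 57.2 and 58.4%. In all 4 libraries 11 Hox genes (28.9%) had such a peak beside 55.6% of protein-coding genes, in both P0 and no P8 library 6 (15.8%) beside 3.70%, and in both P8 and no P0 library 0 beside 0.0457%. The rule matters to these counts. Among the genes with a window, 3 of 22 Hox genes (13.6%) and 55.0% of 17492 protein-coding genes had a peak in it in all 4 libraries, whereas among genes without a window the shares were 8 of 16 (50.0%) and 58%. With 1 kb around either end taken for every gene, 18 Hox genes (47.4%) had a peak in all 4 libraries beside 58.2% of protein-coding genes, and 4 (10.5%) had one in both P0 and no P8 library beside 3.97%. By library, that rule gave 68.4, 73.7, 52.6 and 55.3% of Hox genes and 67.8, 66.0, 60.0 and 61.4% of protein-coding genes, so that the Hox share was above at P0 and below at P8. The differences between Hox and other genes were not tested. Under that rule 6 of 10 Hoxa, 1 of 10 Hoxb, 7 of 9 Hoxc and 4 of 9 Hoxd genes had a peak in all 4 libraries. Hoxc thus had the most such genes and Hoxb the fewest under both rules. The 7 Hoxc genes have no window, so the 2 rules are the same for them. Most Hoxa genes and all Hoxd genes were judged by the narrower window under the first rule, so its order of clusters also reflects the rule.

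At the start of Hoxd10, a gene of the limb and lumbar spinal cord, the merged site at chr2:74691563-74692042 spans the printed window. Its fold enrichment over the local background was 10.6, 8.24, 4.77 and 9.02, so P8 library A alone lay low and the passages overlapped. At the start of Hoxd9 the values were 5.97, 7.51, 5.14 and 4.63, with both P8 libraries below both P0 libraries. Hoxa3 (4.62, 4.77, 5.05 and 6.26) and Hoxa4 (6.68, 7.14, 5.74 and 6.07) also had a start peak in all 4 libraries. In Hoxc these were Hoxc5, Hoxc6, Hoxc8, Hoxc9, Hoxc10, Hoxc11 and Hoxc13, all placed by the gene-end rule. Their highest values were those of Hoxc5 (7.91, 8.31, 7.41 and 8.69) and Hoxc13 (8.75, 7.61, 7.12 and 7.47).

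The 6 genes with a start peak at P0 and none at P8 were Hoxa5, Hoxb5, Hoxb13, Hoxd1, Hoxd11 and Hoxd13. In the printed Hoxa5 window the fold enrichment was 4.04 and 4.66 at P0, and the nearest P8 peaks were 6866 and 2844 bp away. Hoxb5 had 4.97 and 5.43 at P0, and no P8 peak lay within 5 kb of it. The P8 libraries came closest to the window at Hoxd1 (6.60 and 6.96 at P0), where a peak of P8 library A lay 19 bp from it, and at Hoxd13 (4.86 and 4.58), where a peak of P8 library B lay 20 bp from it. Hoxd11 had low values of 3.95 and 3.42 at P0 with the nearest P8 peaks 6138 and 4088 bp from either of its windows. Hoxb5 and Hoxb13 were the only genes of the 38 that kept this pattern under the start rule, the 1 kb rule and the 5 kb rule. Neither gene has a window, so for them the start rule is the 1 kb rule. A gene without a P8 peak within 5 kb also lacks one under the narrower rules, so these are not separate checks.

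**Figure D3:**
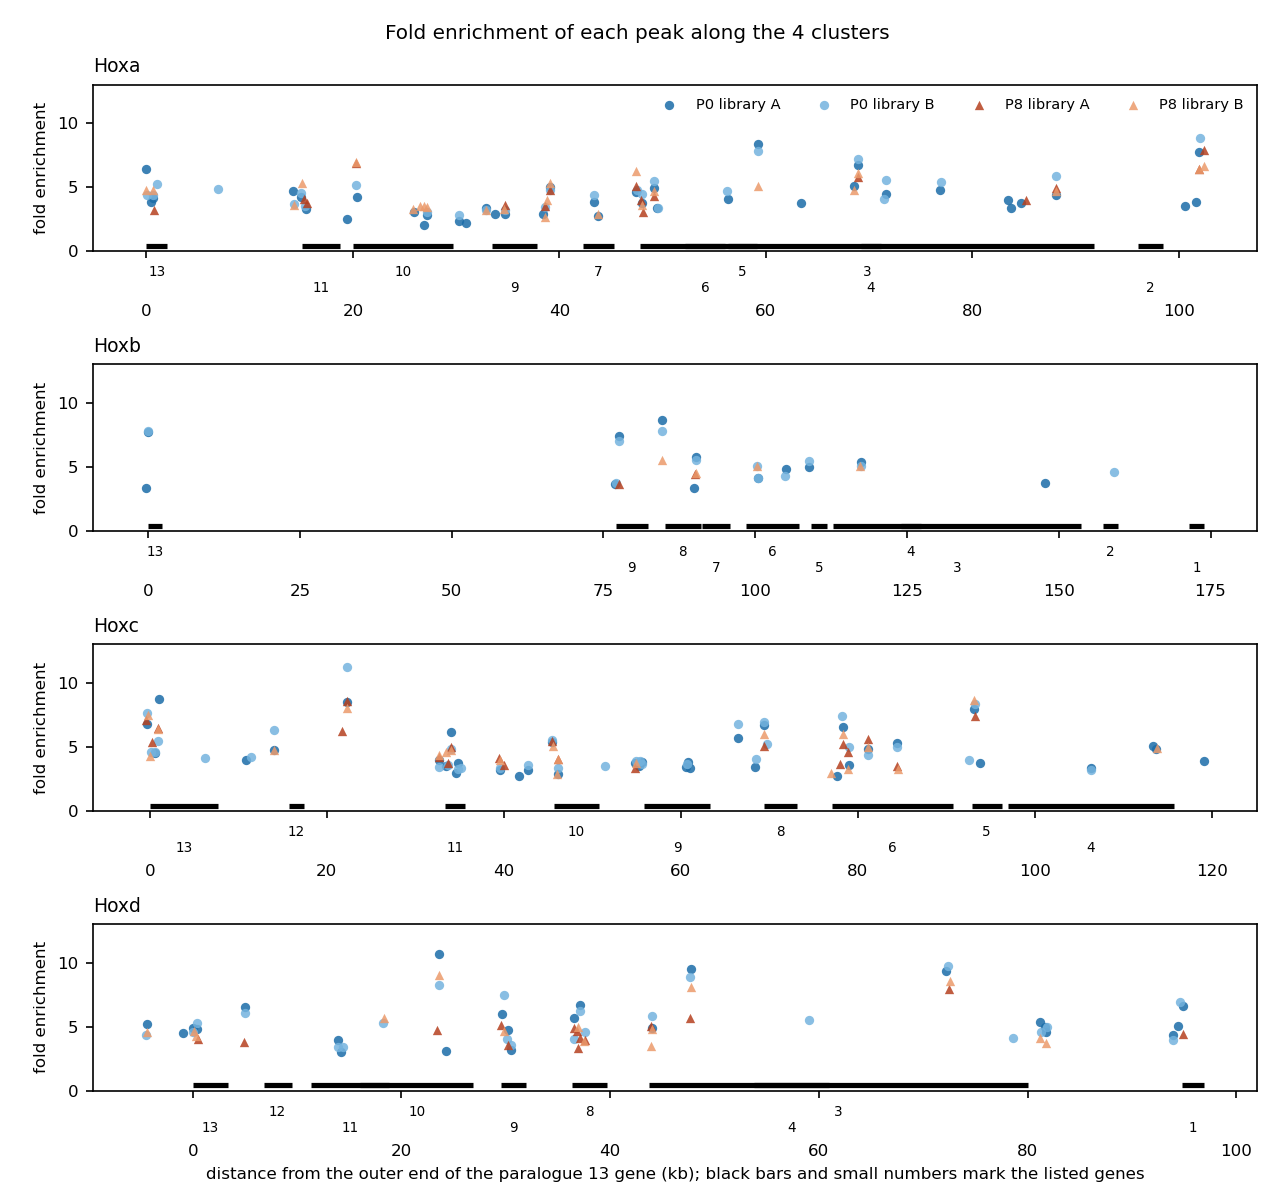
Fold enrichment of each peak (vertical axis) along the 4 clusters (horizontal axis, distance in kb from the outer end of the paralogue 13 gene), with circles for P0 and triangles for P8 libraries. Black bars and small numbers mark the listed genes by paralogue number. The peaks of highest fold enrichment lay beside Hoxc12, at Hoxd10 and in Hoxd3, and Hoxb had scattered peaks with few triangles.

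The 5 shared sites with the highest mean fold enrichment lay in Hoxc and Hoxd. They were a site beside Hoxc12, the site in Hoxc5, both Hoxd3 sites below and the Hoxd10 start, given before. A site 4447 bp from Hoxc12, at chr15:102943056-102943617, had fold enrichments of 8.52, 11.2, 8.54 and 8.01, and it is also counted for the noncoding RNA gene Hotair. The site in Hoxc5 at chr15:103014158-103014639 had 7.91, 8.31, 7.41 and 8.69. The next in Hoxc, not among the 5, lay at the edge of Hoxc13 at chr15:102920647-102921449 and had 6.79, 7.61, 7.12 and 7.47. At these 3 Hoxc sites the passages overlapped. In Hoxd the values were 9.34, 9.76, 7.91 and 8.56 for a site inside Hoxd3 at chr2:74740313-74740935 and 9.47, 8.89, 5.66 and 8.10 for a second at chr2:74715806-74716194. Both Hoxd3 sites were higher in both P0 libraries than in either P8 library. In Hoxa the start of Hoxa4, given before, is the site at chr6:52191821-52192407 within the long span of Hoxa3. A Hoxa site in the same span, on the side of Hoxa5, at chr6:52201585-52201742, had 8.39 and 7.84 at P0 and, in library B of P8 alone, 5.05. In Hoxb a site 376 bp from Hoxb8 at chr11:96278895-96279025 had 8.69 and 7.78 at P0 and 5.56 in P8 library B alone. A site inside Hoxb9 at chr11:96271732-96272050 had 7.40 and 7.01 at P0 and 3.69 in P8 library A alone.

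The P0-only sites in the other clusters were weaker than the one at Hoxb13. The highest of them lay 2890 bp from Hoxc8 at chr15:102987544-102987649 with 5.69 and 6.78, and inside Hoxa3, Hoxa5 and Hoxa7 they ranged from 3.34 to 5.57. Around Hoxc9, which is within 5 kb of that site too, there were 3 further P0-only sites with fold enrichments between 3.5 and 3.87. The only site there shared by all 4 libraries had 3.71, 3.91, 3.33 and 3.72. Hoxc9 had 7 and 6 peaks at P0 but 1 and 1 at P8, and these 3 sites were as high at P0 as the shared one.

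Fold enrichment at the 34 shared Hox sites was compared between the passages in a limma fit over all 55890 shared sites, with each library centred on its median and p-values adjusted by the Benjamini-Hochberg method. The fit called 3 Hox sites (8.82%) higher at P8, near the 5.81% of all sites, and 0 lower, beside 3.25% of all sites. At an unadjusted p under 0.05, 8 of 34 Hox sites were higher and 0 lower, beside 9272 higher and 5291 lower of the 55890 sites. The highest change was at a site inside Hoxa10, which patterns the limb segment next to the body, at chr6:52240473-52240823. Its fold enrichment was 4.24 and 5.18 in the P0 libraries and 6.84 and 6.98 in the P8 libraries, with no overlap between the passages (log2 difference P8 minus P0 of 0.83 with a standard error of 0.18, limma adjusted p = 0.0169). Its peaks lay 94, 118 and 112 bp from the nearest start window of Hoxa10 in the first 3 libraries and reached it in P8 library B alone. A site inside Hoxc10 at chr15:102966983-102967300 had 2.87, 3.29, 4.07 and 4.01 (log2 difference 0.67, SE 0.18, limma adjusted p = 0.0341), and a site 3857 bp from Hoxc11 at chr15:102960558-102960841 had 3.21, 3.29, 4.12 and 3.97 (0.59, SE 0.17, limma adjusted p = 0.0498). The median log2 difference was 0.15 over the 34 Hox sites and 0.07 over all sites, and it was positive at 27 and negative at 7 Hox sites, beside 41.7% negative over all sites. This direction turned without centring, where the Hox median was −0.12 with 11 sites positive and 23 negative, beside 73.4% negative over all sites. Quantile normalization gave 19 positive and 15 negative, and the centred pileup 16 and 18.

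These calls depended on the scale. Without centring, the median log2 difference over all sites was −0.20, the calls over all sites went from 1815 lower and 3250 higher to 5094 lower and 497 higher, and the only Hox call was a site inside Hoxc6 at chr15:103005452-103005710 that was lower at P8 (5.26, 4.97, 3.52 and 3.22, log2 difference −0.60, limma adjusted p = 0.0481). With quantile normalization limma gave 1108 lower and 906 higher calls over all sites and 0 at Hox sites, of which 1 was lower and 3 were higher at an unadjusted p under 0.05. A fit of the centred pileup, the number of tags at the summit, gave 3751 lower and 7004 higher calls over all sites and also 0 in either direction among the Hox sites, of which 1 was lower and 0 were higher at an unadjusted p under 0.05. At the Hoxa10 site the pileup was 38, 34, 26 and 29 tags, and the limma adjusted p in that fit was 0.354. Over 7 alternatives the adjusted p of the Hoxa10 site ranged from 0.00327 to 0.354, and 2 of these passed the threshold, both with a P8 library left out. Without P0 library A, limma called 0 Hox sites and 1261 of all sites higher, and 5 Hox sites and 6955 of all sites were higher at an unadjusted p under 0.05. Without P0 library B it called 1 site of the genome in all, so that the 0 Hox calls there say nothing about the Hox sites.

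The 3 calls lay in stretches with a high local background, the density of tags in the 10 kb around a summit by which the pileup is divided. To set the scales side by side, pileup and local background were each divided by the lowest background of the library, which takes out depth. At the Hoxa10 site the local background was 5.79 and 4.86 times the lowest at P0 and 2.88 and 3.37 times at P8, while the pileup was 26.8 and 28.7 times the lowest at P0 and 25.4 and 29.6 times at P8. The pileup of the passages thus overlapped and the local background did not. At the Hoxc10 site the local background was 5.70, 4.79, 3.59 and 4.32 and the scaled pileup 17.7, 17.7, 17.6 and 20.4. At the Hoxc11 site these values were 4.80, 4.02, 3.06 and 3.35 for the background and 16.9, 15.2, 15.6 and 16.3 for the pileup. In each of the 3 sites both P0 libraries had a higher local background than both P8 libraries, and their summit pileups overlapped.

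**Figure D4:**
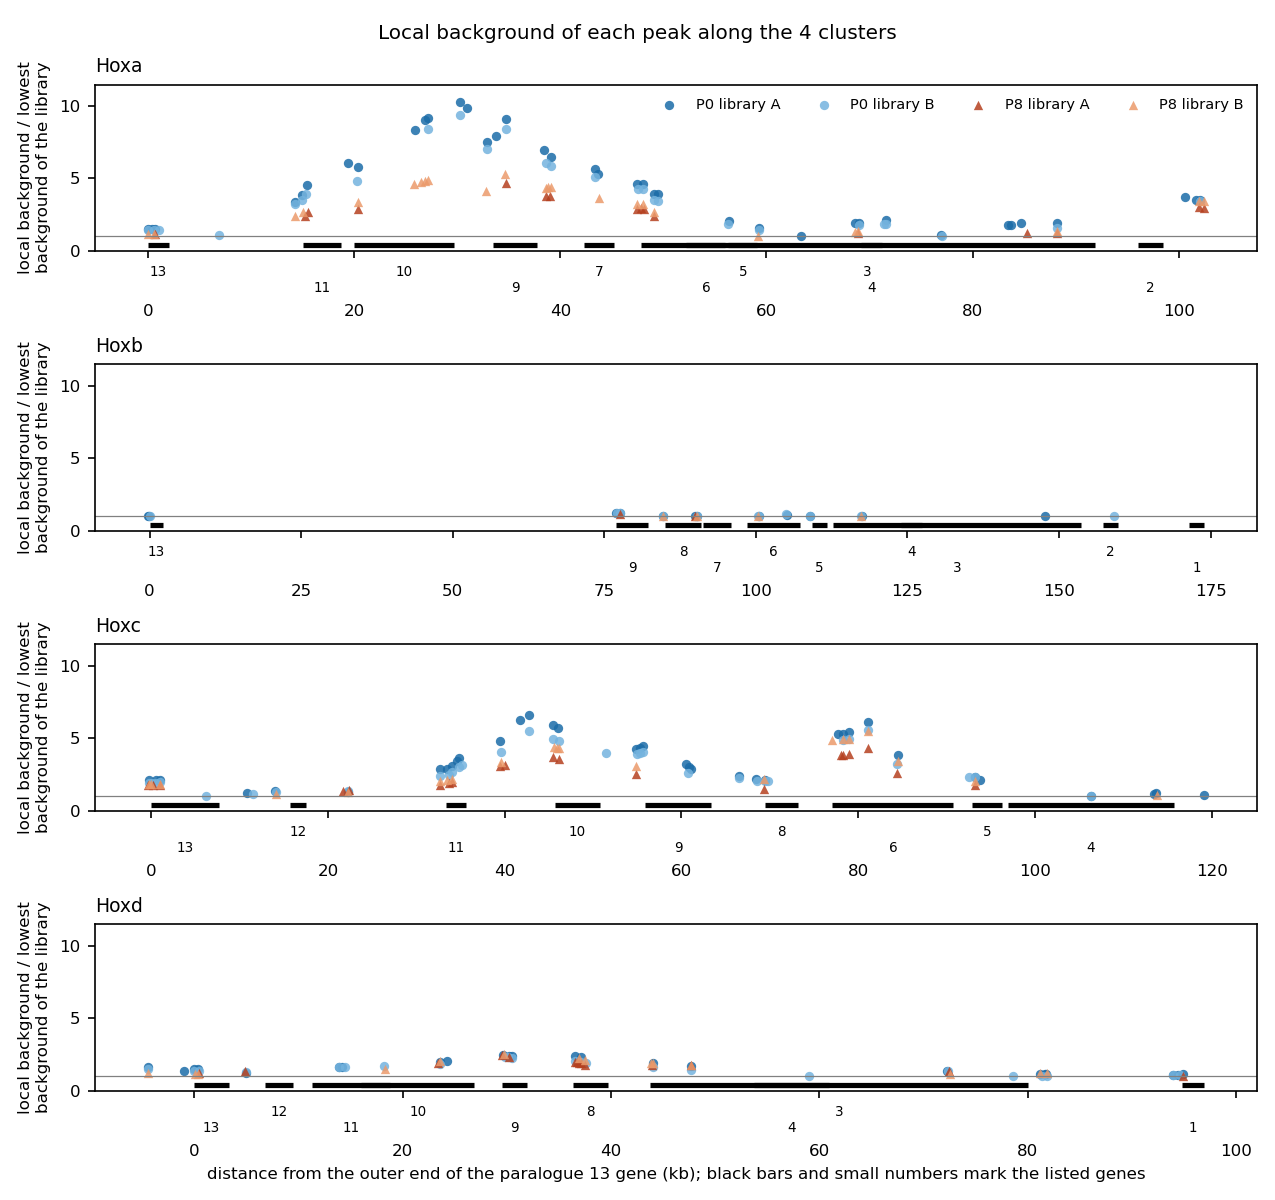
Local background of each peak over the lowest background of its library (vertical axis) along the 4 clusters (horizontal axis, distance in kb from the outer end of the paralogue 13 gene), with circles for P0 and triangles for P8 libraries. The horizontal line marks 1, the lowest background. In Hoxa the values reached 10.3 and 9.38 at P0 and 4.71 and 5.29 at P8 around Hoxa9 and Hoxa10, while Hoxb stayed near the line.

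Along the clusters, the local background was raised in broad stretches of Hoxa and Hoxc, moderately raised in Hoxd and not raised in Hoxb. The highest value at a Hoxa peak was 10.3 and 9.38 times the lowest at P0 and 4.71 and 5.29 times at P8. In Hoxc it was 6.65, 5.57, 4.30 and 5.53, and in Hoxd 2.49, 2.30, 2.45 and 2.50. Hoxb peaks did not exceed 1.22, 1.20 and 1.14 times the lowest in the first 3 libraries and lay at the lowest in P8 library B. The median over all peaks of the genome was 1.18, 1.23, 1.31 and 1.36. The window includes the tags of the peaks themselves, so this measure and the density of peaks are not independent.

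At the shared sites, the local background was higher in both P0 than in both P8 libraries at 23 of 34 Hox sites (67.6%), beside 51.0% of all shared sites, and higher in both P8 libraries at 1 (2.94%), beside 15.9%. The clusters differed in this count. It was 11 of 11 in Hoxa, 11 of 16 in Hoxc and 1 of 7 in Hoxd. Neighbouring sites share parts of their 10 kb windows and are therefore not independent observations. The median log2 difference, P8 minus P0, in local background was −0.54 over the Hoxa sites, −0.27 over the Hoxc sites and 0.05 over the Hoxd sites, beside −0.09 over all shared sites. At a site inside Hoxa9, at chr6:52226117-52226296, the local background was 9.15 and 8.41 times the lowest at P0 and 4.71 and 5.29 times at P8, the widest separation among the shared Hox sites. The scaled pileup there was 27.5, 28.7, 19.6 and 19.4, so it too did not overlap between the passages.

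Summit pileup scaled to the lowest background was higher in both P0 libraries at 16 of the 34 sites (47.1%), beside 50.1% of all shared sites. It was higher in both P8 libraries at 0 of 34, where 15.7% of all shared sites had this order. The median log2 difference in scaled pileup was −0.27 over the Hox sites and −0.25 over all shared sites. By cluster it was −0.27 in Hoxa, −0.12 in Hoxc and −0.30 in Hoxd, so the Hox sites as a whole did not depart from the genome in their median. Fold enrichment itself was higher in both P0 libraries at 10 Hox sites (29.4%), 5 of them in Hoxd, beside 49.9% of all shared sites. It was higher in both P8 libraries at 8 (23.5%), 3 in Hoxa and 5 in Hoxc, beside 11.6%. For fold enrichment the median log2 differences before centring were −0.07, −0.08 and −0.42 in Hoxa, Hoxc and Hoxd, beside −0.20 over all shared sites. Hoxd therefore lay on the lower side of the genome's median in fold enrichment and Hoxa and Hoxc on the upper side.

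**Figure D5:**
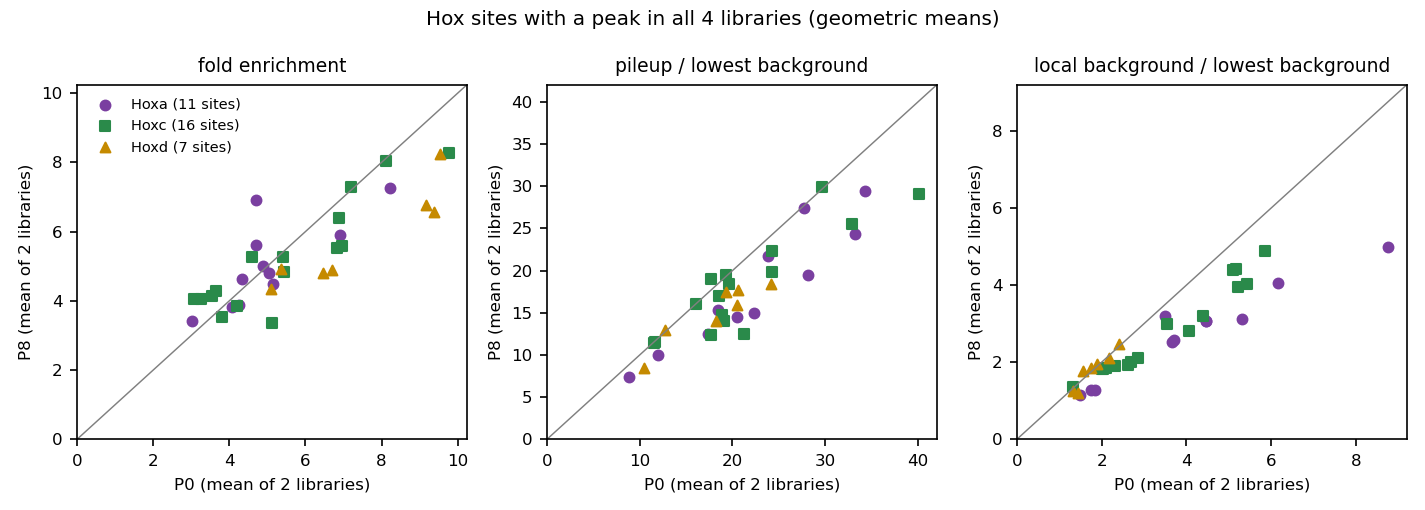
Mean at P8 against mean at P0 for the 34 Hox sites with a peak in all 4 libraries, for fold enrichment, summit pileup over the lowest background and local background over the lowest background (geometric means of 2 libraries; the line marks equality). In the right panel all 11 Hoxa sites lie below the line, whereas in the left panel the Hoxa10 site and several other Hoxa and Hoxc sites lie above it.

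Hox peaks were lower in fold enrichment than the peaks of the genome as a whole. Their median was 4.20, 4.58, 4.50 and 4.71, and the median of all peaks was 5.38, 5.87, 5.44 and 5.67. In Hoxb, where the local background was not raised, the low values went with low pileups, with a median of 11 and 10 tags at P0 and 7.5 and 9 at P8. In Hoxa the median pileup of 25, 21, 14.5 and 16.5 tags exceeded that of all peaks, which was 16, 15, 13 and 14, although its median fold enrichment was 3.79, 4.49, 4.19 and 4.68. The order of clusters thus depended on the scale, since Hoxa exceeded Hoxb in pileup but not in fold enrichment in 3 of the 4 libraries.

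Cofactors and chromatin regulators of the Hox genes had peaks in every library. A peak in or within 5 kb was present in all 4 libraries at 9 of 9 Hox cofactor genes, which encode the Pbx, Meis and Pknox partners that bind DNA with Hox proteins. Among these, the highest fold enrichment was 12.9, 13.2, 10.4 and 9.61 at Pknox2 and 12.9, 10.6, 10.4 and 8.59 at Meis1. The same held for 19 of 19 Polycomb genes, led by Jarid2 (17.0, 17.2, 16.1 and 16.8), and for 8 of 8 Trithorax and demethylase genes. Of all protein-coding genes, 74.5% had such a peak in all 4 libraries, and the lists were not tested against that share. Of the Cdx genes, which activate Hox genes in the embryo, Cdx2 alone had a peak in all 4 libraries (7.05, 10.6, 8.01 and 5.92). These lists hold 0 genes with a peak in both libraries of one passage and none of the other. Among protein-coding genes, 2.63% had this pattern for P0 and 0.27% for P8, so in lists this short 0 is near the share of all genes.

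The highest peaks at some, but not all, of the 10 listed genes flanking the clusters exceeded those of the clusters themselves. The 3 highest were at genes outside the 5 kb limit of the clusters. Lnpk, near Hoxd, had fold enrichments of 15.7, 18.6, 13.8 and 13.9. Hibadh, near Hoxa, had 16.7, 15.7, 14.3 and 15.4, and Calcoco1, near Hoxc, had 15.5, 17.9, 15.9 and 13.7. No peak of a listed Hox gene exceeded 11.2. Evx1, a homeobox gene next to Hoxa13, was the only one of 10 neighbours without a peak in all 4 libraries and is named after its values were seen, with 4.83, 5.49 and 3.81 in the first 3 and none in P8 library B. Among the limb-type genes, Pitx1 and Tbx4, which mark the hindlimb, and Tbx5, which marks the forelimb, all had peaks in all 4 libraries. Over all protein-coding genes the share was 74.5%. At Tbx4 there were 7 and 7 peaks at P0 and 4 and 2 at P8, with highest fold enrichments of 8.34, 7.53, 4.53 and 4.03. At Tbx5 these values were 8.31, 7.49, 6.19 and 6.57, and at Pitx1 7.25, 7.77, 6.42 and 6.20. In highest fold enrichment, both P0 libraries were thus above both P8 libraries at all 3 genes. The share of all genes with this order was not computed, but 49.9% of all shared sites had it.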

How the data were processed

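ATAC-seq libraries of mouse chondrocytes at P0 and P8 (2 each) had been sequenced as 50 bp paired-end reads. The authors aligned the reads with Bowtie2 to mm10 and called peaks in each library separately with MACS2 at default settings. For each peak the authors deposited its position, the pileup at the summit (a signal in tags, not scaled for depth), the fold enrichment over the local background (a ratio), and the −log10 values of p and of q. Another table, with the authors' own DiffBind comparison of the passages (log2 fold changes, p-values and FDR), was not used here. The versions of these tools are not given in the sources used here.

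The local background was computed from pileup and fold enrichment, and the deposited −log10 p was recovered from them to within 0.00019. Depth was taken from the lowest background of a library. Overlapping peaks were merged into sites. Positions came from the RefSeq table of GRCm38.p6, the same assembly as mm10, and all 38 gene symbols were matched. Counts were compared by exact two-sided permutation tests over libraries, and fold enrichment by limma 3.58.1 (R 4.3.3) on log2 values with no pseudocount. The same fit was also run on simulated data, and the outcome is not given here. Alternatives were other windows (0, 1 and 10 kb), a −log10 q of at least 5, a matched background, equal numbers of peaks, other scalings and leaving out each library. The depth-scaled pileup and local background were added after values had been seen. All 38 genes could be named; of the other lists, genes with a call and up to 3 with the highest fold enrichment; and of sites, the 3 with the highest mean fold enrichment in a cluster and those with a call. Members and lists were chosen with earlier results of these data known. 1 Hoxa site is not reported here by position. Tables were handled with pandas 2.3.3 and figures drawn with matplotlib 3.10.9 (Python 3.11.15).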

Additional observations from a re-analysis of the deposited data

How the results depend on the processing

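No paired analysis was possible because the peak names carry no replicate number that matches a sample. Of 122 values computed under another setting, 93 stayed close to the reported one, 29 moved and 0 reversed. Many of these are single counts: of limma calls, of sites by the libraries holding a peak and of genes with a start peak. Such counts could be labelled only as close or moved, so a reversal could show only in the ratios between the passages. Without centring, the direction at the shared Hox sites did turn, as given above. With a −log10 q of at least 5, the P0 to P8 ratio of Hox peaks was 2.48, that of their share 1.65, that of covered length 2.83, that of Hoxa 2.87 and that of Hoxb 14.0, with 19 sites in all libraries and 1 site in both P8 and no P0 library. With the same number of peaks the ratios were 1.22 for all clusters, 2.00 for Hoxb and 1.11 for Hoxc, with 11 sites in both P0 and no P8 library and 2 in both P8 and no P0 library. Inside genes only (0 kb), 12 sites were in both P0 and no P8 library, and a reciprocal overlap of 50% gave 2 sites in both P8 and no P0 library. Leaving out each library gave 26 to 49 sites at P0 only and 0 to 3 at P8 only, since fewer libraries then had to hold or lack a peak, and ratios of 1.61 to 1.95 for all Hox peaks. The count of genes with a peak at the start in all 4 libraries was 18 within 1 kb of an end. Sites called higher at P8 numbered 0 without centring, 0 with quantile normalization, 0 by pileup and 0 among sites above the median fold enrichment, where 6 Hox sites remained to be tested, and from 0 to 4 when a library was left out. Sites called lower numbered 1 without centring and from 0 to 1 when a library was left out, which without P8 library B was the Hoxd10 start (log2 difference −0.63, limma adjusted p = 0.0443, the lone P8 library being assumed to vary like the others). The cause was not tested. A count of 2 libraries against 2 cannot pass the threshold by permutation, and sites near the calling limit can be missed in the shallower P8 libraries.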
